A study of Mus musculus with 16 samples.

Results

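Peaks of N4-acetylcytidine (ac4C), a modified cytidine that the enzyme NAT10 places in RNA, were examined in 4 mouse liver transcripts of glucose and glycogen handling: Pfkl, Slc2a2, Pcx and Gbe1. Their peaks were taken by gene name from 8 deposited peak lists. They are 4 of the 8602 genes with any peak and hold 19 of 68356 peaks, which fell into 9 of 25437 regions once peaks sharing at least 1 bp were merged. The 4 genes were selected on the number of db/db and lean lists with a peak in these same data, so their values are a description and carry no test.

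All lists are of liver from male mice, 4 from the db/db group (db1, db2, db4 and db5) and 4 from the lean control group (C5 to C8). They hold 8212 to 9754 peaks each in the db/db group and 7583 to 8503 in the lean group. A db/db mouse carries a defective leptin receptor and becomes obese and diabetic. The labels give the strain of the control mice as C57BL/6 and that of the others only as db/db. The genetic background of the db/db mice, the age of either group and whether the animals had been fed or fasted are not given in the sources used here. RNA was broken to about 200 nt and pulled down with an antibody to ac4C, and a peak is a stretch where the authors' caller found the pull-down enriched. Whole liver was used, so fewer cells of a type and less RNA per cell cannot be told apart.

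The liver takes up glucose through GLUT2, the product of Slc2a2, a carrier that lets glucose pass in either direction across the hepatocyte membrane. Glucose that enters glycolysis passes phosphofructokinase, whose liver subunit is encoded by Pfkl and which commits the sugar to breakdown. Pyruvate carboxylase, encoded by Pcx, works in the mitochondrion against that flow and turns pyruvate into oxaloacetate, the opening step of glucose production from pyruvate. Gbe1 encodes the glycogen branching enzyme, which adds the branch points that make stored glycogen compact and soluble. In db/db livers glucose production is known to be poorly restrained by insulin.

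Peaks in Gbe1 and Pcx reached an annotated start of the gene, and the sequence around those starts is shown for that reason. It is from RefSeq, build GRCm38.p6, on the plus strand, with the 70 bases before the start in lower case and the opening 30 transcribed bases in capitals. The Gbe1 stretch is chr16:70313879-70313978 and the Pcx stretch, at the second of its annotated starts, is chr19:4594249-4594348.
Gbe1: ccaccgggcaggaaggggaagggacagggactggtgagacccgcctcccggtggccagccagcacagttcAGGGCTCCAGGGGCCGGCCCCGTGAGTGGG
Pcx: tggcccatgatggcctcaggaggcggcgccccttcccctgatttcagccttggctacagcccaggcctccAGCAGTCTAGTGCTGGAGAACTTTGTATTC
The capitals of Gbe1 are covered by the peaks of C5 and C7, while the peaks of C6 and C8 begin at the next base. The capitals of Pcx are covered by the peak of db1. Gbe1 has 9 cytidines in its 30 transcribed bases and Pcx has 5, against a median of 8 over the 32851 annotated starts in the table. The repeat CNNCNNCNN, a pattern described around ac4C sites in mammalian mRNA, was searched on both strands of these 30 bases, counting overlapping matches. It occurred in the sense direction in 32.1% of all starts and in the antisense direction in 40.9%. Gbe1 had 1 sense match, CGGCCCCGT from transcribed base 15, and 1 antisense match. Pcx had 0 sense matches and 1 antisense match.

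A score and a fold enrichment accompany each peak, both the authors' own values. The score is 10 times the negative decimal logarithm of the call's p-value, and the fold is a linear ratio of pull-down to background. They are used only to describe a peak within its own list, since the depth of the libraries is unknown and the lists were called separately. Across lists only presence and absence were compared, and absence means that no peak was reported. Transcript levels were not used here, and their part in a missing peak was not tested.

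**Figure D1:**
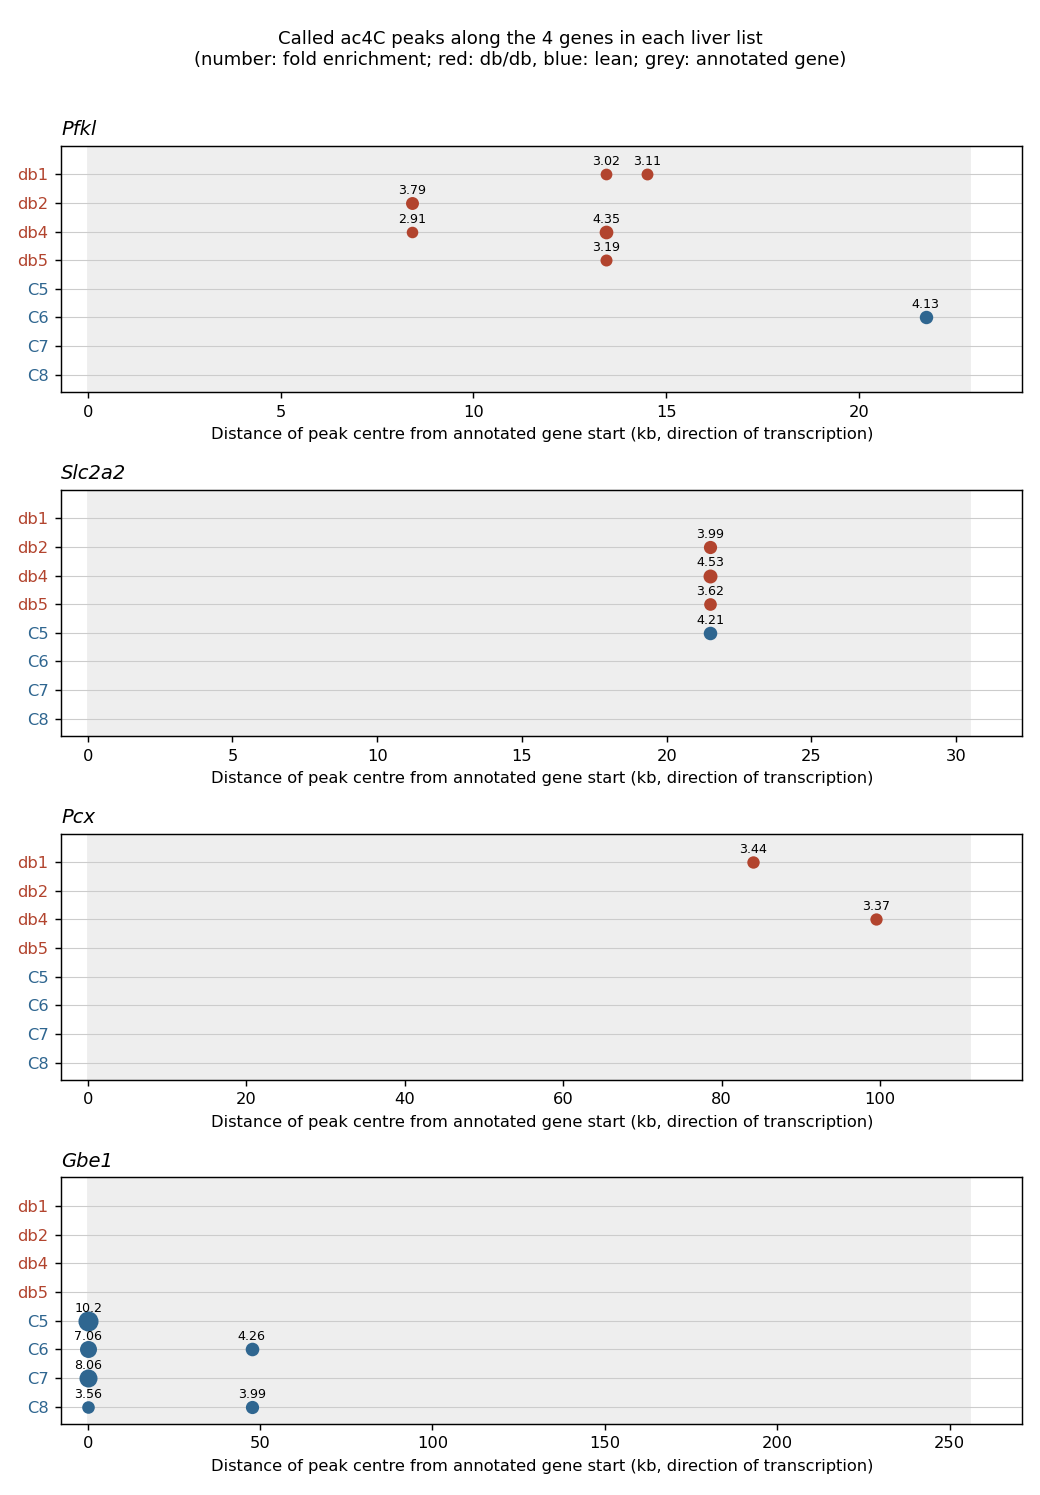
Called peaks of Pfkl, Slc2a2, Pcx and Gbe1 in each of the 8 peak lists (rows; db/db in red, lean in blue), placed by the distance of the peak centre from the annotated gene start in kb, with the fold enrichment above each point. The Gbe1 peaks lie in lean lists only, with 4 of them at the gene start, and the 4 Slc2a2 peaks share 1 position.

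Slc2a2, the glucose carrier gene, had a peak in 3 of 4 db/db lists and 1 of 4 lean lists. It had 1 region, on chromosome 3 from 28719320 to 28719507 (mm10), 21.42 kb into a gene that runs from 28697903 to 28728361 on the plus strand. The fold was 3.99 in db2, 4.53 in db4, 3.62 in db5 and 4.21 in C5. No peak was called in db1, C6, C7 or C8, so the groups overlapped through C5. The scores were 63.32, 107.17 and 59.55 in the db/db lists and 104.58 in C5. All 4 peaks had a score above 50 and stood between percentiles 71.4 and 87.2 of the scores of their own lists. Start and end were identical to the base in the 4 lists. The gene 1700112D23Rik is annotated over the same stretch on the minus strand. The lists give no strand, so reads of these genes cannot be told apart there.

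Slc2a2 and Pfkl share a db/db pattern, defined as a peak in 3 or 4 db/db lists with no more than 1 lean list, which 616 of the 8602 genes had, or 7.16%. The mirrored lean pattern, to which Gbe1 belongs, was found in 433 genes, or 5.03%. When each list was cut to its 7583 best-scoring peaks, the length of the shortest list, these numbers became 481 and 510. At the level of regions 6.07% had the db/db pattern and 4.81% the lean pattern.

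Pfkl, the phosphofructokinase gene, had a peak in all 4 db/db lists and in 1 lean list, C6, but not at the same place. Its 7 peaks made 4 regions on chromosome 10 within a gene that runs from 77986947 to 78009807 on the minus strand. The region from 77996320 to 77996412 was called in db1, db4 and db5, at folds of 3.02, 4.35 and 3.19, and in no lean list. It lay 13.4 kb from the gene start, and its 93 bp were bounded identically in the 3 lists. The region from 78001311 to 78001500 was called in db2 at a fold of 3.79 and in db4 at 2.91. The db1 list alone had a further region, from 77995244 to 77995369, at a fold of 3.11. The single lean peak was the widest, 547 bp from 77987811 to 77988357, and lay 21.45 kb from the gene start, toward the far end of the gene, at a fold of 4.13. Db/db and lean peaks of Pfkl therefore overlapped at no base. This rests on the single lean peak, with a score of 14.76, at percentile 7.58 of the scores of C6. How often other genes called in both groups share no base was not counted.

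The Pfkl calls were weak. Scores ran from 13.82 to 25.64, and each of the 7 was below the median score of its list, which was 28.48 to 33.01. The lowest score of any peak in the 8 lists was 13.02. Only 1 db/db and 1 lean list had a Pfkl peak with a fold reaching 4, and no list had one with a score reaching 50. Of the paralogous subunit genes, Pfkm, the muscle form, had a peak in 2 db/db and 2 lean lists, at best folds of 2.13 and 2.79 in db2 and db4 and of 3.02 and 2.41 in C6 and C8. Pfkp, the platelet form, had no peak in the 8 lists.

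Pcx, the pyruvate carboxylase gene, had 2 peaks, both in db/db lists and at different sites. The gene runs from 4510472 to 4621752 on the plus strand of chromosome 19. In db1 the peak ran from 4594319 to 4594442 at a fold of 3.44 and a score of 35.56, and began exactly at the second annotated start, the sequence of which is given above. In db4 it ran from 4609864 to 4610046 at a fold of 3.37 and a score of 13.26, at percentile 1.11 of the scores of that list. The db2 and db5 lists and the 4 lean lists had no Pcx peak. A peak in 2 db/db and 0 lean lists was found in 409 of the 8602 genes, or 4.75%, and the reverse in 267, or 3.1%. No Pcx site was called more than 1 time, and neither peak had a fold of at least 4 or a score of at least 50.

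**Figure D2:**
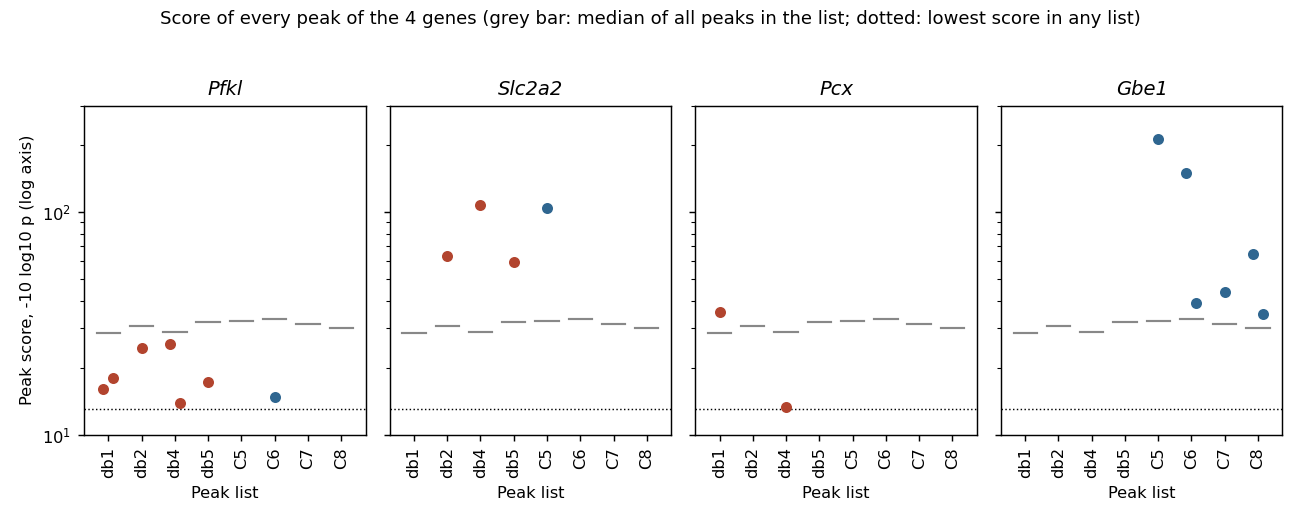
Score of every peak of the 4 genes (points, log axis) by peak list, with db/db lists in red and lean lists in blue. Grey bars give the median score of all peaks in that list and the dotted line the lowest score in any list; Pfkl lies below the grey bars throughout, Slc2a2 and Gbe1 above them.

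Gbe1, the branching enzyme gene, had a peak in all 4 lean lists and in no db/db list. The gene runs from 70313949 to 70569720 on the plus strand of chromosome 16. Its main region began at the first annotated base of the gene and ended at 70314295. The fold there was 10.2 in C5, 7.06 in C6, 8.06 in C7 and 3.56 in C8. C5, C6 and C7 stood high within their lists, at percentiles 95.2, 86.3 and 91.6 of all folds, and C8 stood at 34.4. The scores were 212.24, 149.47, 43.88 and 64.74 in the same order. The peaks of C5 and C7 were 347 bp wide and those of C6 and C8 were 317 bp wide, with the same end in all 4.

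Gbe1 had a second region, from 70361495 to 70361650, 47.55 kb into the gene. It was called in C6 at a fold of 4.26 and in C8 at 3.99, and the authors assigned it to another transcript model (uc007zqt.2) than the main region (NM_028803). The pattern of 4 lean and 0 db/db lists was found in 58 genes, or 0.674%, and in 180 regions, or 0.708%. The reverse was found in 81 genes, or 0.942%, and in 217 regions, or 0.853%. Requiring a fold of 4 left Gbe1 with 3 lean lists, C5, C6 and C7, and no db/db list. Requiring a score of 50 also left 3 lean lists, but these were C5, C6 and C8. The db/db lists held no peak of any name within the annotated bounds of Gbe1.

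Fisher's exact test on the lists with and without a peak, with Benjamini-Hochberg adjustment over all 8602 genes, called 0 genes (0%), and over the 25437 regions it called 0 regions (0%). At an unadjusted exact p under 0.05 there were 139 genes and 397 regions. With 4 lists against 4 the smallest possible p is 0.0286, too large to pass such an adjustment here, so the outcome says nothing about the 4 genes.

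The 19 peaks of the 4 genes were set beside all peaks. Their median fold was 3.99 against 4.07 over all peaks, their median width 188 against 183 bp, and their median score 35.56 against 30.74. Of the 19 peaks 8 (42.1%) had a fold of at least 4, against 52.0% of all peaks, and 7 (36.8%) a score of at least 50, against 32.0%. The false discovery rate in the lists was 100% for all 19, as it was for 99.21% of all peaks.

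Peak edges recurred between lists. Start and end were identical to the base in another list for 13 of the 19 peaks (68.4%) and for 69.3% of all peaks. An edge fell exactly on the annotated start of a gene for 3 of the 19 (15.8%), the Gbe1 peaks of C5 and C7 and the Pcx peak of db1, and for 8.53% of all peaks. Exon annotation was not used here, so the other edges were not set against exon bounds.

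The wider pathway was described through 10 gene groups with 140 genes, of which 78 had a peak in at least 1 list. Of these 78 genes 38 (48.7%) had a peak in more db/db than lean lists, 16 (20.5%) in more lean lists and 24 (30.8%) in equal numbers. Over all 8602 genes the shares were 38.2%, 30.1% and 31.7%. Without the 4 selected genes they were 47.3%, 20.3% and 32.4% of 74. The median difference between the groups was 0 lists, in the pathway as over all genes. The db/db pattern was shown by 8 of the 78 (10.3%) and the lean pattern by 4 (5.13%). Without the selected genes these were 6 (8.11%) and 3 (4.05%) of 74, beside the 7.16% and 5.03% of all genes. The number on the db/db side was 5 in lists cut to one length, 2 among peaks with a fold reaching 4, and 3 or 4 without any single db/db list, when the pattern needs every remaining list. Over all genes the db/db number, 616, became 481, 457 and 274 to 332 in these settings. Without db4 the number on the lean side was 7, and over all genes it rose from 433 to 667.

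Pathway genes with a peak numbered 36, 41, 48 and 40 in db1, db2, db4 and db5, and 43, 37, 27 and 29 in C5 to C8. As a share of all genes with a peak this was 0.779% to 0.951% in the db/db lists and 0.63% to 0.93% in the lean lists. C7 and C8 were low and C5 and C6 lay within the db/db range, so the groups overlapped.

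**Figure D3:**
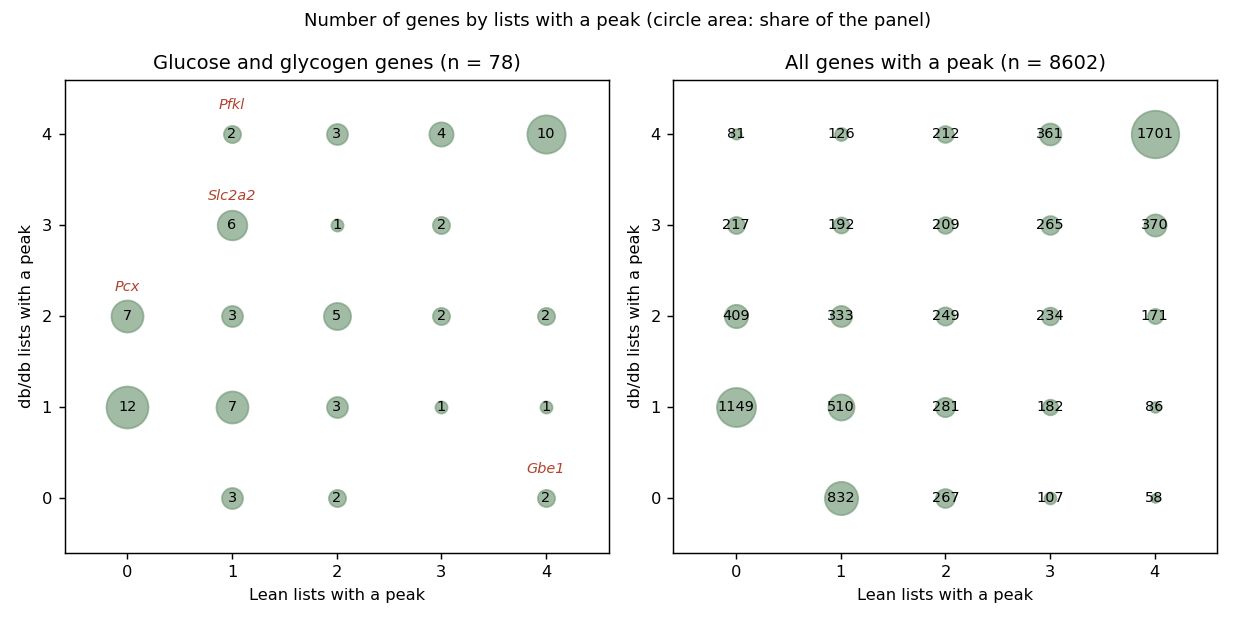
Number of genes by how many lean lists (horizontal axis) and db/db lists (vertical axis) held a peak, for the 78 glucose and glycogen genes and for all 8602 genes; circle area is the share within a panel. Pfkl and Slc2a2 are among the 8 pathway genes at 3 or 4 db/db lists and 1 lean list, and Gbe1 sits at 4 lean and 0 db/db lists with 1 other pathway gene.

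Among the genes of glucose transport, 4 of 7 had a peak. Besides Slc2a2, the fructose and urate carrier genes Slc2a5 and Slc2a9 had one in 1 and 2 db/db lists and in no lean list. Slc2a1, the widespread glucose carrier GLUT1, had one in db5 at a fold of 3.62 and in C5 at 3.29. Hk1, a hexokinase gene, was called in db5 alone, at a fold of 3.38.

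Glycolysis had 9 genes with a peak of 23. Pfkl was the only one of them with either pattern. Pfkfb3, which makes the activator of phosphofructokinase, was called in 2 db/db lists (5.9 in db4 and 4.34 in db5) and 3 lean lists (3.36, 4.27 and 4.29 in C5, C6 and C8). Pkm, a pyruvate kinase gene, was called in 2 lists of each group. Counting the 9 genes by list gave 2 to 4 in the db/db lists and 1 to 7 in the lean lists, with the 7 in C6.

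In gluconeogenesis 4 of 13 genes had a peak. Got2, the mitochondrial aspartate aminotransferase gene, had the lean pattern with peaks in 3 lean lists and db4. One stretch of chromosome 8, 95877713 to 95877869, carried a peak in C5, C6, C7 and db4. Got1, its cytosolic counterpart, was called in db2 at a fold of 3.7 and in db5 at 3.35 and in no lean list. Pck1 and Fbp1, the genes of the enzymes that bring oxaloacetate and fructose bisphosphate toward glucose, had no peak in the 8 lists.

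The glycogen group had the most genes, 19 of 30 with a peak, and leaned in both directions. Each db/db list held 9 to 11 of them and each lean list 5 to 8, so the groups did not overlap in this count. In every other gene group the ranges of the db/db and lean lists overlapped. Genes of any kind with a peak numbered 4407 to 5046 in db/db lists and 4071 to 4623 in lean lists. The glycogen genes were 9 of the 5046 in db4 and 8 of the 4623 in C5. The part of list length in the glycogen count was not tested. Phkb, the beta subunit of phosphorylase kinase, which switches on glycogen breakdown, had a peak in 4 db/db lists and 1 lean list. Its 11 peaks were scattered over 9 regions, and the most often called, on chromosome 8 from 85875634 to 85875723, was found in db1 and db2 only. Its difference between the groups fell from 75 to 25 percentage points of lists, too little for the db/db pattern, in each of 5 settings: a fold of 4, a score of 50, a score above the pooled median, lists cut to one length, and peaks assigned by annotated gene bounds. Gaa, the lysosomal enzyme that digests glycogen, carried a peak at bases 119280412 to 119280563 of chromosome 11 in db2, db4 and db5. Its folds there were 4.03 to 4.29 and its scores 13.06 to 47.1, and a second region was called in db2, db4 and C8. Gbe1 was the only glycogen gene with the lean pattern. Gys2, the liver glycogen synthase, had peaks in 4 db/db and 3 lean lists at folds up to 8.41. Gsk3a, a kinase that inhibits glycogen synthase, had its 1 region in all 8 lists at folds of 5.8 to 11.42, and Ppp1cc, a catalytic subunit of the phosphatase that activates the synthase, had its own in all 8 at 3.62 to 7.75.

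**Figure D4:**
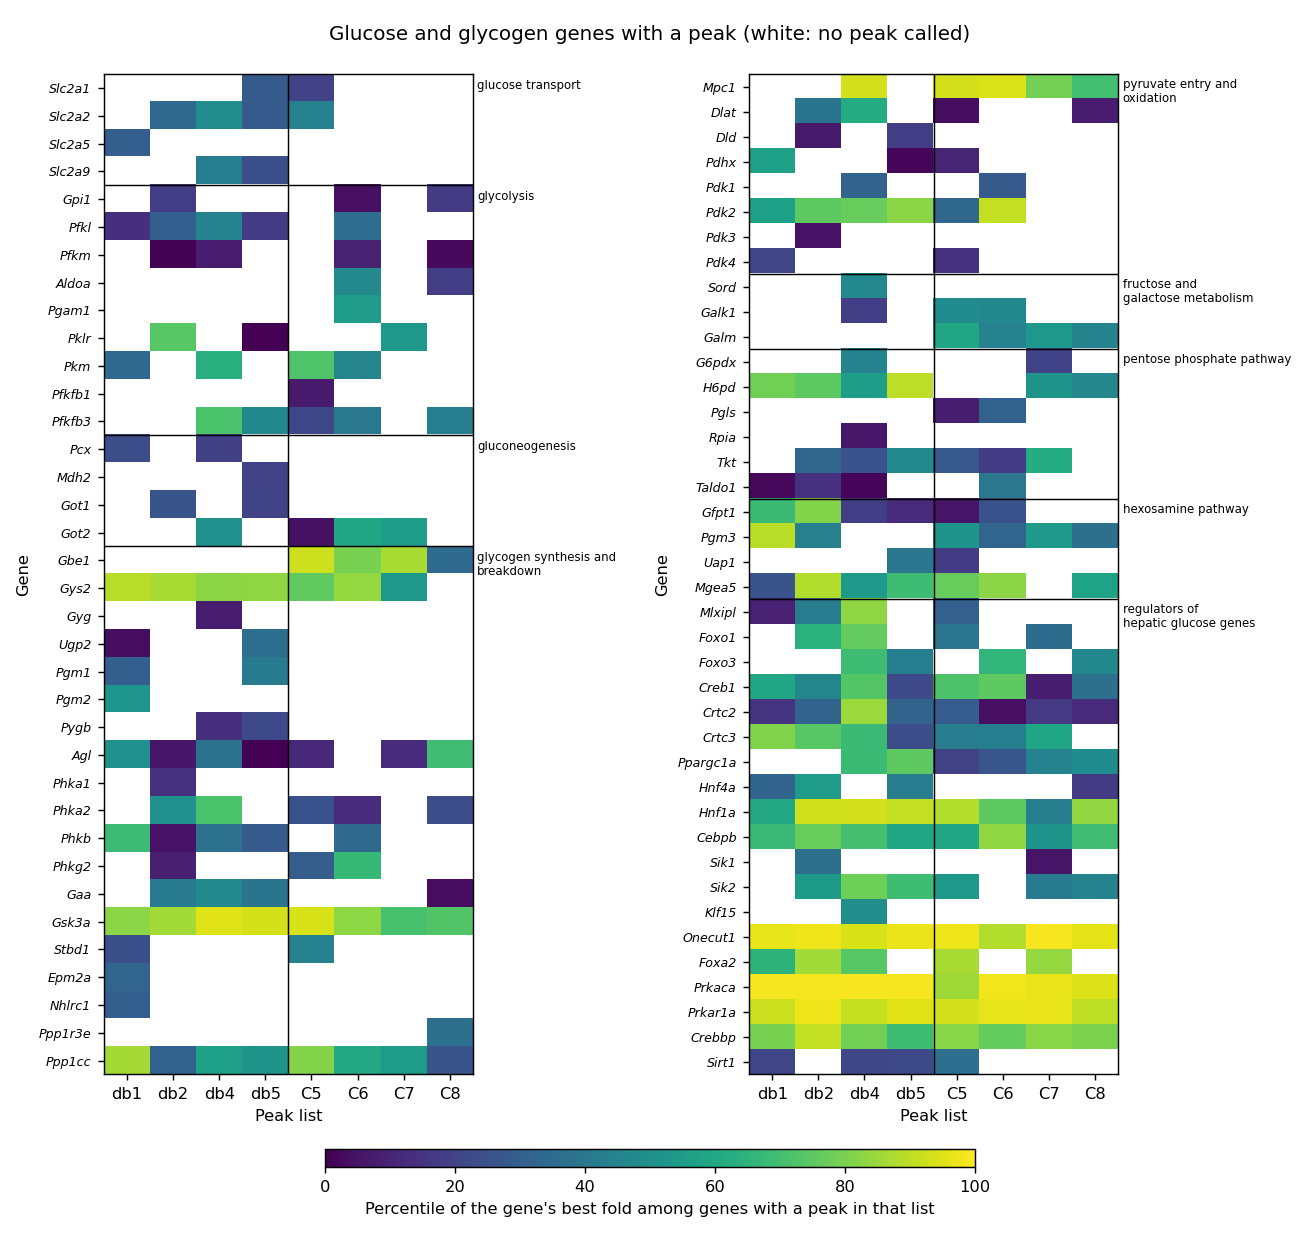
The glucose and glycogen genes with a peak, without the glucose phosphorylation group (rows, by gene group) in the 8 peak lists (columns; db/db left of the line), coloured by the percentile of the gene's best fold among genes with a peak in that list, white where no peak was called. Gsk3a, Prkaca, Prkar1a and Onecut1 are filled in all 8 columns, and Gbe1 and Galm in the 4 lean columns only.

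Pyruvate entry and oxidation had 8 of 14 genes with a peak. Mpc1, a subunit of the carrier that brings pyruvate into the mitochondrion, where pyruvate carboxylase acts, had the lean pattern. It was called in C5, C6, C7 and C8 at best folds of 10.71, 11.84, 6.7 and 5.86, and in db4 at 10.01. The stretch of chromosome 17 called in C5, C6, C8 and db4, 8284454 to 8284684, touched an annotated gene start, as the Gbe1 region did. Pdk2, a kinase that shuts down pyruvate dehydrogenase, was called in 4 db/db and 2 lean lists.

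Of the fructose and galactose genes 3 of 8 had a peak. Galm, which turns galactose and glucose between their ring forms, matched Gbe1 with a peak in 4 lean and 0 db/db lists. The folds of its peak, at bases 80150089 to 80150170 of chromosome 17, were 5.01, 4.43, 4.77 and 4.35 in C5 to C8. All 4 exceeded 4, while 1 lean list alone had a score reaching 50. In the pentose phosphate pathway 6 of 8 genes had a peak. Taldo1, the transaldolase gene, had the db/db pattern (db1, db2 and db4 at 2.42, 3.19 and 2.45, and C6 at 4.22), of which C6 alone had a fold reaching 4. In the hexosamine pathway 4 of 7 genes had a peak and none had either pattern, with Gfpt1, the entry enzyme, in 4 db/db and 2 lean lists and Pgm3 in 2 and 4.

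Regulators of hepatic glucose genes were called most often, 19 of 23, and 8 of them in all 8 lists. Over all genes 1701 (19.8%) were in all 8 lists, and over the pathway 10 of 78. Prkaca and Prkar1a, subunits of the kinase that carries the glucagon signal, and Onecut1, a hepatic transcription factor, had folds up to 23.41, 14.26 and 29.15. Mlxipl, which encodes the glucose-sensing factor ChREBP, had the db/db pattern. Bases 135089890 to 135090060 of chromosome 5 carried its peak in db1, db2, db4 and C5, with folds of 2.89, 4.31, 7.23 and 3.73, and touched an annotated gene start. Hnf4a, a master regulator of hepatocyte genes, carried a peak at bases 163568887 to 163569039 of chromosome 2 in db1, db2 and db5, with folds of 3.81 to 4.98. It was also called elsewhere in the gene in the lean list C8, at a fold of 3.23, and in db2, at 3.69. Sirt1, a deacetylase, had the same pattern, from db1, db4, db5 and C5, at folds of 3.38 to 3.95, none reaching 4. ChREBP is known to drive glycolytic genes in liver, and HNF4A to drive Slc2a2 and gluconeogenic genes.

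Cell markers were read as calls, not as amounts. Of 12 hepatocyte markers 3 had a peak, in db/db lists only: Cps1 in db2 and db5, Ass1 in db5 and Fgb in db1. Over all genes 13.4% had a peak in 1 db/db list and 0 lean lists, and 4.75% in 2 and 0. Alb, Apoa1 and Ttr, which define the cell, had no peak, so these lists do not measure hepatocyte content. Stellate cell markers with a peak numbered 2 to 4 of 6 per db/db list and 1 to 3 per lean list, and cholangiocyte markers 1 to 4 of 5 and 0 to 1. Sinusoidal endothelial markers numbered 1 to 4 and 2 to 4 of 6, Kupffer cell markers 1 to 2 and 1 to 3 of 7, and lymphocyte markers 0 to 2 and 0 of 5. Adipocyte markers numbered 0 to 1 of 4 in either group, and the 4 exocrine pancreas markers had no peak. Single markers, named after their values were seen, differed by group. The Kupffer cell marker Timd4 had a peak in the 4 lean lists and no db/db list, the set of lists of Gbe1, at folds of 3.2, 4.64, 5.3 and 6.16 in C5 to C8. The endothelial marker Tek had one in 3 lean and 0 db/db lists, and the stellate cell marker Des and the lymphocyte marker Cd74 each in 3 db/db and 0 lean lists. Other markers of these cell types went the other way. Marco and Cd5l of Kupffer cells were called in 4 and 2 db/db lists and in 2 and 0 lean lists. Stab1 and Kdr of the endothelium were called in 3 db/db lists each and in 1 and 2 lean lists. Pdgfrb of stellate cells was called in 0 db/db and 2 lean lists. Clec4f, Lyve1, Lrat, Colec11 and Ptprc leaned as the named marker of their type did. The part of cell composition in the calls of Pfkl, Slc2a2, Pcx and Gbe1 was not tested.

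Genes with a pattern like each of the 4 were found by the mean absolute difference, over the 8 lists, of the percentile of a gene's best fold within the list, set to 0 where no peak was called. For Gbe1 these were Pccb, a subunit of mitochondrial propionyl-CoA carboxylase, Sec24b, a coat protein of secretory vesicles, and Tmem5, at 4.77, 7.12 and 7.39 percentile points. Pccb and Sec24b each had 1 db/db list besides the 4 lean lists, and Tmem5 had the same lists as Gbe1. For Slc2a2 they were Sgk2, Fryl and Acaca, at 3.42, 3.55 and 4.13 points. Acaca, which encodes an acetyl-CoA carboxylase of fat synthesis, was also called in db1, C6 and C7, at folds of 2.16, 2.51 and 3.02. For Pfkl they were Fbxl19, Rpl37rt and Mief1, at 4.53, 4.91 and 5.43 points, of which Rpl37rt had the same 5 lists. For Pcx they were Myc, Cep19 and Eda, at 0.443, 0.611 and 1.0 points, all called in db1 and db4 only. Of the 8602 genes with a peak, some shared the exact set of lists of a selected gene, whatever the fold. These were 38 other genes for Pfkl, 17 for Slc2a2, 75 for Pcx and 57 for Gbe1.

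**Figure D5:**
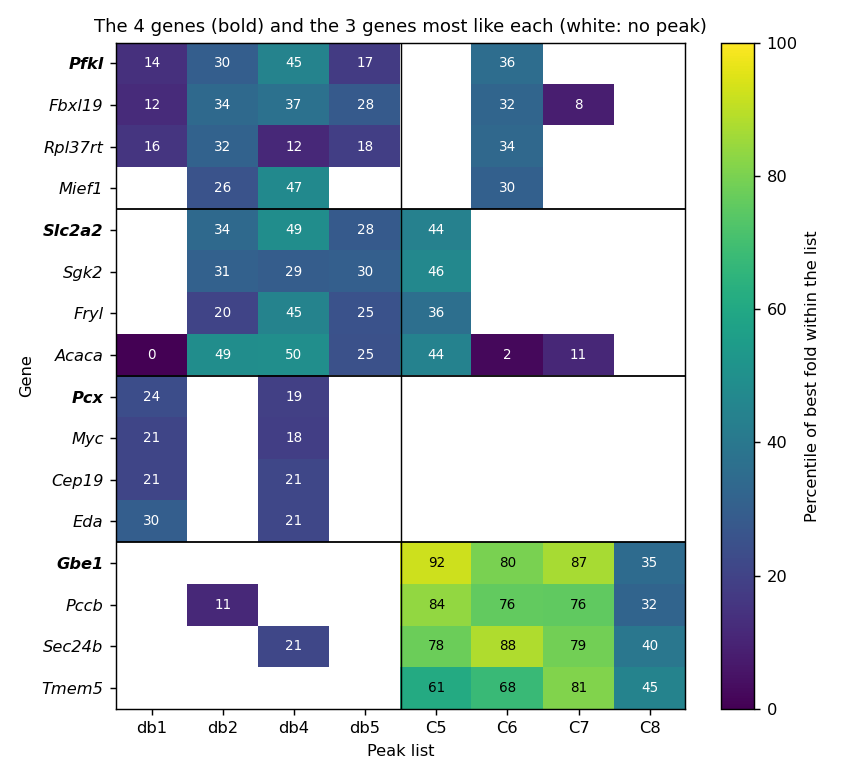
Percentile of the best fold within each peak list for Pfkl, Slc2a2, Pcx and Gbe1 (bold) and the 3 genes most like each; white cells had no peak. Gbe1 stands at 35 in C8 against 80 to 92 in C5, C6 and C7.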

How the data were processed

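Per the labels' protocols, rRNA-depleted liver RNA was fragmented and immunoprecipitated with an ac4C antibody, and 8 immunoprecipitates and their 8 inputs make the 16 samples. The submitters' processing notes name cutadapt 1.9.3, HISAT2 2.0.4 and the build mm10. Peak names in the deposited files name MACS. Its version, its control and any pooling are not given in the sources used here. The authors deposited, per peak, a score (10 times the negative log10 of p), a fold enrichment as a linear ratio and a false discovery rate in percent; depth is unknown. The names of the lists fix their group but not their sample number, and C was read as the lean control group. Labels do not say that samples are separate animals, so a p-value here covers sample-to-sample spread that may be technical.

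Starts were made 1-based. Peaks sharing 1 bp were merged (Python 3.11.15, pandas 2.3.3), genes and regions were tested by Fisher's exact test (SciPy 1.17.1), and scripts were tested on simulated data. Gene bounds and starts are RefSeq's, GRCm38.p6, of the same build. All 191 listed symbols matched it. The 4 genes and all gene groups were chosen with earlier results of these data known. Named genes are the 4, pathway genes with either pattern, up to 3 per group with most lists, and 3 most alike per gene without predicted genes; others were chosen after their values were seen. One gene that this rule names is not reported here. Alternatives were a fold of at least 4, a score of at least 50, a score above the pooled median, equal numbers of peaks, genes by bounds, other merging rules and leaving out each list.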

Additional observations from a re-analysis of the deposited data

Results flagged for a closer look

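In 8 of 34 sets of 4 lists, 1 list stood apart from the other 3 by more than Dixon's criterion allows. Chance alone gives about 1 in 20 such sets, and counts this small meet the criterion whenever 3 lists tie. Of the 4 selected genes, 3 had a peak in db4, against 2 in each other db/db list. Among lean lists, C5 had 2 glucose transport genes and 1 glucose phosphorylation or dephosphorylation gene with a peak, against 0 in the others, and C8 had 0 gluconeogenesis genes against 1. Among db/db lists, db1 had 0 glucose phosphorylation or dephosphorylation genes against 1, and 11 glycogen genes against 9. The db4 list had 2 fructose and galactose genes against 0, and 2 hexosamine genes against 3.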

How the results depend on the processing

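No paired analysis was possible because the names of the peak lists carry no sample number that the groups share. The difference in lists with a peak, db/db minus lean, was 75 percentage points for Pfkl, 50 for Slc2a2 and Pcx and -100 for Gbe1. Requiring a fold of 4 gave 0 for Pfkl, Slc2a2 and Pcx and -75 for Gbe1. Requiring a score of 50 gave 0 for Pfkl and Pcx and -75 for Gbe1, and requiring a score above the pooled median gave 0 for Pfkl. Pcx fell from 50 to 25 above the median and again in lists of equal length. Leaving out each list gave 66.7 to 100 for Pfkl, 41.7 to 75 for Slc2a2, 33.3 to 66.7 for Pcx and -100 throughout for Gbe1. These ranges are fixed by the counts of lists on which the genes were selected, so they are no check of the differences. Genes by annotated bounds gave the same 4 differences. Pathway genes with the db/db and lean patterns, 8 and 4, numbered 2 and 3 with that fold, 3 and 2 with that score, 2 and 4 above the pooled median, and 5 and 3 in lists of equal length. Leaving out lists gave 3 to 11 and 3 to 7. Over all genes, 616 and 433 became 457 and 328 with that fold, 275 and 250 with that score and 405 and 331 above the median. Without a list they were 274 to 839 and 204 to 667. Regions with these patterns, 1543 and 1223, became 798 and 694 with that fold, 429 and 430 with that score and 742 and 659 above the median, and 657 to 1942 and 532 to 1712 without a list. Fewer peaks or lists entered each of these. Among 31 other named genes, Taldo1 turned from 50 to -25 points with that fold and Galk1 from -25 to 25 points above the median. Pathway genes that lost their pattern included Phkb, at 25 points in all 5 settings other than merging and leaving out lists. Sirt1 lost it with that fold, with that score or above the median, at 0 points, and in lists of equal length, at 25. Gaa lost it with that score, at 0, and in lists of equal length, at 25. With that fold Mlxipl kept only db2 and db4, and Hnf4a only db2 and db5, at 50 points each and without the pattern. Mlxipl also lost it with that score or above the median, at 25, and Hnf4a did so at 50. Got2 lost it with that score, at -50, and with that fold, above the median or in lists of equal length, at -25. Merging peaks within 100 bp, or only those overlapping by 50% of the shorter, changed no difference for the most often called region of each gene. Without read counts, a missing peak cannot be told from one that was too shallow to call.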
